A study of Homo sapiens with 30 samples.

Results

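Regions of open chromatin were compared between definitive ectoderm (DE, day 1) and posterior neural ectoderm (pNE, day 2), which was made from it, in H1 cells, an established human embryonic stem cell line with wild-type genotype per the labels. The assay was OmniATAC-seq: the transposase Tn5 inserts sequencing adapters where DNA is accessible. The labels give 3 replicates per group and 50000 cells per library, while the deposited data hold, for every group, 1 list of peak positions without scores. Every statement therefore compares lists, read depth is unknown, and no value carries a replicate error. DE cells had spent 1 day in the chemically defined medium CDM2 with A8301 (1 µM, an inhibitor of the activin, NODAL and TGF-beta receptors), LDN193189 (100 nM, an inhibitor of BMP receptors), C59 (1 µM, which blocks WNT secretion) and trametinib (250 nM, a MEK inhibitor). For pNE they were replated as single cells at 37500 per square cm and kept for another day with A8301 (1 µM) and LDN193189 (100 nM) as before. C59 and trametinib were left out, and the retinoic acid receptor agonist TTNPB (50 nM), the growth factor FGF2 (20 ng/mL), the tankyrase inhibitor XAV939 (1 µM) and the ROCK inhibitor thiazovivin (1 µM) were added. Anterior neural ectoderm (aNE, day 2) went through the same replating with A8301, LDN193189, C59 and thiazovivin and without TTNPB, FGF2 and XAV939. The changes of agents, replating and 1 more day coincide between DE and pNE, so their parts cannot be told apart. In such bulk samples, fewer cells with an open region and less open DNA per cell cannot be told apart either.

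Peaks of all 10 lists of the series on chromosomes 1 to 22 were merged where they overlapped by at least 1 bp. This gave 476170 regions, and a list was called open at a region where it had a peak. Of these, 270524 were open in DE or pNE. The lists held 238994 peaks in DE and 199638 in pNE on these chromosomes, with median widths of 265 and 287 bp. A region is called gained where pNE alone of the pair had a peak, lost where DE alone had one, and kept where both had one. The other lists are undifferentiated pluripotent cells (hPSC, day 0) and 6 day 4 populations, made from aNE or pNE in a telencephalon (T), midbrain (M) or hindbrain (H) medium.

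Retinoic acid is the signal that sets posterior identity in the early neural tube. It binds heterodimers of the receptors RAR and RXR on pairs of short elements in DNA, and RARB, CYP26A1 and the HOX genes at the 3′ ends of their clusters are known direct targets. FGF signalling, held off in DE by the MEK inhibitor, acts with it in the posterior neural plate, while OTX2 marks the anterior part. An open region near a gene does not show that the gene is expressed.

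Starts of listed genes at which the DE and pNE lists differed are shown first, as the 250 bases before the transcription start in RefSeq (GRCh38.p14), with matches to any of the motifs searched in capitals. They are start sites covered more widely in pNE (RARB, SP5, CDX2), with a window open in pNE and not in DE (HOXA2, MEIS3), or in DE and not in pNE (TFAP2A, OTX2, ALDH1A1). Bases are counted from the start, which is 1, and the base before it is -1.
RARB, chr3:25428013-25428262, + strand: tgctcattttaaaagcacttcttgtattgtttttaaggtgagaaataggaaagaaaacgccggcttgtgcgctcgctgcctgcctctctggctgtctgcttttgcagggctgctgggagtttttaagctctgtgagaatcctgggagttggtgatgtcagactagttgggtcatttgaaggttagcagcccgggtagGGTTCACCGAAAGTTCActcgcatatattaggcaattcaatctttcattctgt
HOXA2, chr7:27102684-27102933, - strand: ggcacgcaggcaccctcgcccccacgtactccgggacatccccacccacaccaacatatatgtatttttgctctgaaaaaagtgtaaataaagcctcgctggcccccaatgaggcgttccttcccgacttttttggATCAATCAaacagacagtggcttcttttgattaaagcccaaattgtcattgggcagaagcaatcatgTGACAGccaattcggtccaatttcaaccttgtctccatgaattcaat
MEIS3, chr19:47422234-47422483, - strand: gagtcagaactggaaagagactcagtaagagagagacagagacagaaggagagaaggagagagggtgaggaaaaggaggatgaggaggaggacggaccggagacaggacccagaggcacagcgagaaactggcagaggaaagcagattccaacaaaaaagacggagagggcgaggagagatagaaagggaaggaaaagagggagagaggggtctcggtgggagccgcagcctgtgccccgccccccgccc
SP5, chr2:170715087-170715336, + strand: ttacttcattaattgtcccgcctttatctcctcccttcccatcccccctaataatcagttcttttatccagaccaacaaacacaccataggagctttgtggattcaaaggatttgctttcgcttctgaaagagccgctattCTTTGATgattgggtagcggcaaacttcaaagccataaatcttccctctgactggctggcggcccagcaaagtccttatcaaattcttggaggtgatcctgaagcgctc
CDX2, chr13:27969316-27969565, - strand: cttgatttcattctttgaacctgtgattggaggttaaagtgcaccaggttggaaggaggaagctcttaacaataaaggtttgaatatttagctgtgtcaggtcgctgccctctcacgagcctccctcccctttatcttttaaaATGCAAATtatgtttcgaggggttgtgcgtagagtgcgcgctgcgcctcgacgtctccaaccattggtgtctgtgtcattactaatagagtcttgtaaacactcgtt
TFAP2A, chr6:10419660-10419909, - strand: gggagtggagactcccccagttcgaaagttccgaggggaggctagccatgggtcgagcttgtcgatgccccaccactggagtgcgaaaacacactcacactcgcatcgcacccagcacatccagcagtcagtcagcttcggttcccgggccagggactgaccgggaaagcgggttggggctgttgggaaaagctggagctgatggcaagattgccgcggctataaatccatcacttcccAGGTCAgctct
OTX2, chr14:56810480-56810729, - strand: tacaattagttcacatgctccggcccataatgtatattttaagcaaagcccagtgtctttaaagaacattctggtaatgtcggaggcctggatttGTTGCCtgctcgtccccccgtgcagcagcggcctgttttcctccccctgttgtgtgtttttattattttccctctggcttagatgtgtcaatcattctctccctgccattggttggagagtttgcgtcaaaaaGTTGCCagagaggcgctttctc
ALDH1A1, chr9:72953054-72953303, - strand: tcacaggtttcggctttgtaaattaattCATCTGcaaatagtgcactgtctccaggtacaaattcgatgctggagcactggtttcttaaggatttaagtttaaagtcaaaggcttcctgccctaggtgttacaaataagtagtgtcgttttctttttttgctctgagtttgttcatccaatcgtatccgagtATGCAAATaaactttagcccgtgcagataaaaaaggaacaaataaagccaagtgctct

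In RARB the capitals mark a DR5, a direct repeat of the RAR/RXR hexamer with 5 bases between the copies, from -53 to -37; in repeats the hexamer was AGGTCA with A or G as its first base and G or T as the third. The HOXA2 capitals are a HOX-PBX match read on the opposite strand (-114 to -107) and a MEIS match (-47 to -42), and the SP5 capitals a TCF/LEF match (-109 to -103). Both HOXA2 matches lay outside the pNE peaks, the nearest of which ran from -412 to -205 and from 221 to 1707. CDX2 (-107 to -100) and ALDH1A1 (-58 to -51) each held an OCT match, and ALDH1A1 also an E-box. TFAP2A held a single RAR/RXR hexamer at -11 to -6, OTX2 an RFX match at -155 and another at -22, and MEIS3 none. The CDX2 match lay outside the DE peak (-36 to 217) and the pNE peak (-82 to 842) at that start. The OTX2 match at -155 and the ALDH1A1 E-box lay outside the DE peaks. A match is a string of letters and does not show that a factor binds.

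From DE to pNE, 47251 regions were gained, 84099 were lost and 139174 were kept. Of the regions open in either list, 17.5% were gained, 31.1% were lost and 51.4% were kept, and the Jaccard index (kept over open in either) was 0.5145. The excess of losses moved with the lengths of the lists. With DE reduced to its 199638 widest peaks, the narrowest of 144 bp, so that both lists had equal size by width, 57938 regions were gained (23.6%) and 59220 were lost (24.1%). Gains and losses were then nearly equal in number.

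Gained and lost peaks were narrow, and kept peaks were wide. The median width of pNE peaks in gained regions was 192 bp and that of DE peaks in lost regions 184 bp, against 347 bp in DE and 342 bp in pNE for kept regions. Of the kept regions 51.3% were covered more widely by pNE, with a median log2 ratio of covered width of 0.015, and 7.37% were at least 2 times as wide in pNE against 7.62% in DE. Kept regions were thus covered about equally by both lists. Of the 48243 pNE peaks in gained regions, 166 lay within 100 bp of a DE peak. Among kept regions 1245 had no DE peak and pNE peak that overlapped each other, their peaks being joined by those of other lists.

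The changed regions lay away from gene ends. Of gained regions 8.18% (Wilson 95% interval 7.93% to 8.43%, counting error only) were no farther than 1 kb from the end of a gene, of lost regions 8.83% (8.64% to 9.03%), and of kept regions 19.3% (19.1% to 19.5%). The median distance to the nearest start of a protein-coding gene was 100.0 kb for gained, 63.1 kb for lost and 56.7 kb for kept regions. Gained regions were the farther from genes, with 29.7% (29.3% to 30.1%) intergenic with every gene end beyond 5 kb, against 24.3% of lost (24.0% to 24.6%). In lists of equal size by width these shares were 29.1% and 24.2%.

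The share of gained among changed regions went down with the number of genes around them. Where no protein-coding gene had its midpoint within 500 kb, 4146 regions were gained and 3716 lost, so that 52.7% of changed regions were gained (51.6% to 53.8%). This share was 46.1% with 1 to 2 genes, 39.0% with 3 to 5, 32.4% with 6 to 10 and 26.5% with 11 to 20. With 21 or more genes, 2475 were gained and 7867 lost, a share of 23.9% (23.1% to 24.8%). The order was the same in lists of equal size by width, from 66.4% with no gene to 35.7% with 21 or more. Chromosomes differed in the same sense. The share was 46.1% on chromosome 4 and 44.0% on chromosome 13, and 22.9% on chromosome 19, 23.7% on chromosome 22 and 24.5% on chromosome 17. Base composition and the ease of mapping reads also differ between such parts of the genome, and their part in the gradient was not tested.

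**Figure D1:**
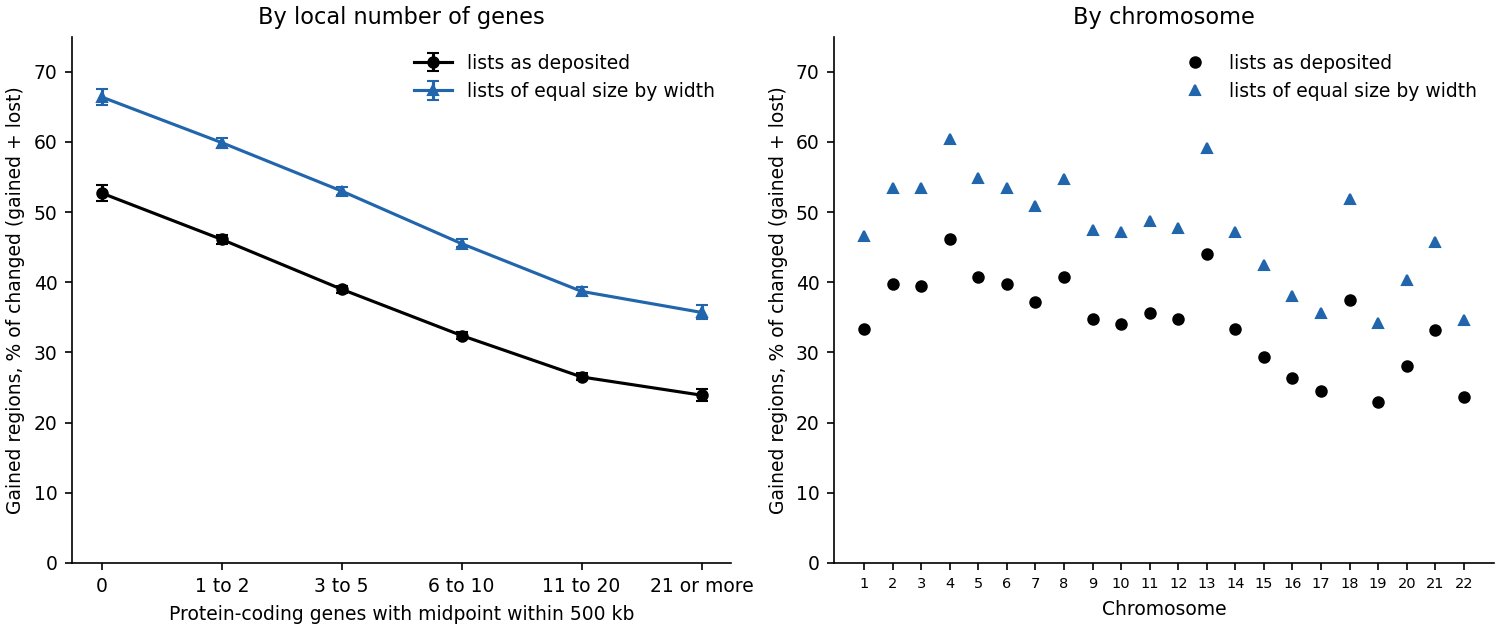
Gained regions as a percentage of gained plus lost regions, by the number of protein-coding genes with midpoint within 500 kb of the region (left, with Wilson 95% intervals) and by chromosome (right), for the lists as deposited and with DE cut to the size of pNE by width. The share falls from 52.7% with no gene to 23.9% with 21 or more as deposited, and from 66.4% to 35.7% in lists of equal size.

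Most gained regions had been closed in pluripotent cells, and most stayed open in some later population. Of the 47251 gained regions, 18.7% (18.4% to 19.1%) were open in hPSC, against 41.1% (40.8% to 41.5%) of the lost, 83.7% of the kept and 40.5% of all merged regions, so that the lost regions lay near the share over all regions. Of the day 4 lists made from pNE, the T list was open at 44.1% of gained regions, the M list at 49.7% and the H list at 72.9%. For those made from aNE the T, M and H shares were 36.2%, 62.5% and 59.3%. Of all merged regions, between 38.1% (aNE_T) and 61.0% (pNE_H) were open in these lists. The gained regions were open less often in pNE_M, which came from pNE, than in aNE_M and aNE_H, which did not. With all lists cut to the length of the shortest, pNE_H had 52.7% of the regions then gained and pNE_M 50.0%, below aNE_M with 61.3% and aNE_H with 62.3%. The first place of pNE_H, the longest list with 302355 peaks, thus changed with list length.

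Gained regions were more often found again than lost ones. All 6 day 4 lists were open at 6589 gained regions (13.9%, 13.6% to 14.3%) and none of them at 4674 (9.89%). The lists made from pNE were all open, with none made from aNE, at 2052 gained regions (4.34%, 4.16% to 4.53%). Of lost regions 51.7% (51.4% to 52.1%) were closed in all 6 day 4 lists, and 30.9% (30.6% to 31.2%) were open in DE alone of the 10 lists. Of gained regions 8.41% were open in pNE alone.

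**Figure D2:**
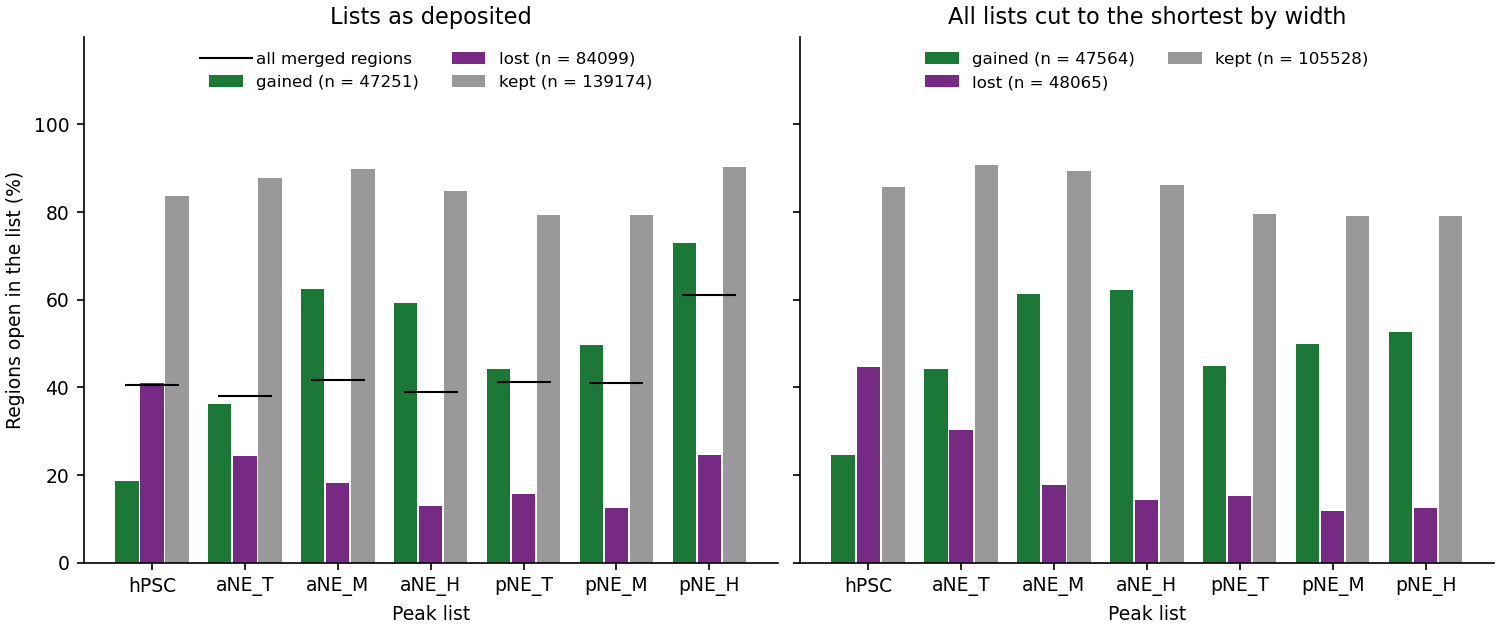
Percentage of gained, lost and kept regions open in the hPSC list and the 6 day 4 lists, as deposited (left, with black lines for all merged regions) and with all lists cut to the shortest by width (right, where gained, lost and kept were counted anew). Gained regions (green) exceed lost ones (purple) in each day 4 list, and lost exceed gained in hPSC.

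Near genes, a region was counted where its midpoint lay inside the gene or no more than 50 kb beyond either of its ends. Near all 19126 protein-coding genes, 33.0% of changed regions were gained, and 46.3% in lists of equal size. Of the 18435 genes with a changed region, 11.4% had more gained than lost, and 28.5% of those with one in lists of equal size. The median gene had 2 gained and 5 lost regions. Each gene list below is set against these values.

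The genes of the early neural ectoderm had the highest gained share of the 15 lists in these windows. Near these 25 genes 126 regions were gained and 139 lost, so that 47.5% of changed regions were gained, and 61.4% in lists of equal size. The order of lists depended on how regions were assigned: by nearest gene end HOX groups 1 to 4 led with 53.8%, ahead of early neural genes with 50.1%, and with 10 kb windows neural crest genes led with 54.8%, ahead of early neural genes with 51.3%. More regions were gained than lost at 10 of the 25 genes and fewer at 14. DACH1, a transcriptional cofactor of the early neural plate and eye, had 18 gained, 3 lost and 14 kept regions. Of its 18 gained regions 8, 12 and 16 were open in pNE_T, pNE_M and pNE_H, 6, 14 and 14 in aNE_T, aNE_M and aNE_H, and 2 in hPSC. CDH2, the neural cadherin, had 13 gained and 7 lost regions, and ZIC1, a zinc finger factor of the neural plate, 8 gained and 3 lost. GLI3, a transducer of hedgehog signals, had 17 gained and 14 lost. SOX1 had 3 gained and 2 lost, and LHX1 0 and 6. The median gene of the list had 1 more lost than gained region (gained minus lost of -1.0), against -3.0 over all genes, and 2.0 against -1.0 in lists of equal size.

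CDH2 and CDH1, the neural and the epithelial cadherin, which are known to replace each other during neural induction, had opposite balances. CDH1 had 1 gained, 17 lost and 13 kept regions, and its window held 12287 bp of peaks in DE, 10059 in aNE and 8704 in pNE. The window of CDH2 held 8407 bp in DE, 10956 in aNE and 11398 in pNE. Both day 2 lists lay on the same side of DE at each gene.

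The neural crest list had 50 gained and 62 lost regions at 8 genes (44.6%), second in these windows, and 36.2% with the widest 50% of each list, below, among others, HOX groups 1 to 4, anterior genes (44.4%) and retinoid receptors (40.4%). SOX5 alone had 31 gained and 26 lost in its long window, while SOX10, which defines neural crest cells, had 2 gained and 9 lost. At 12 mesendoderm genes 24 regions were gained and 57 lost (29.6%), and at 13 genes of surface ectoderm and amnion 45 were gained and 108 lost (29.4%). TBXT, the mesoderm factor brachyury, had 3 gained and 4 lost, and GATA2 had 1 gained and 13 lost.

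**Figure D3:**
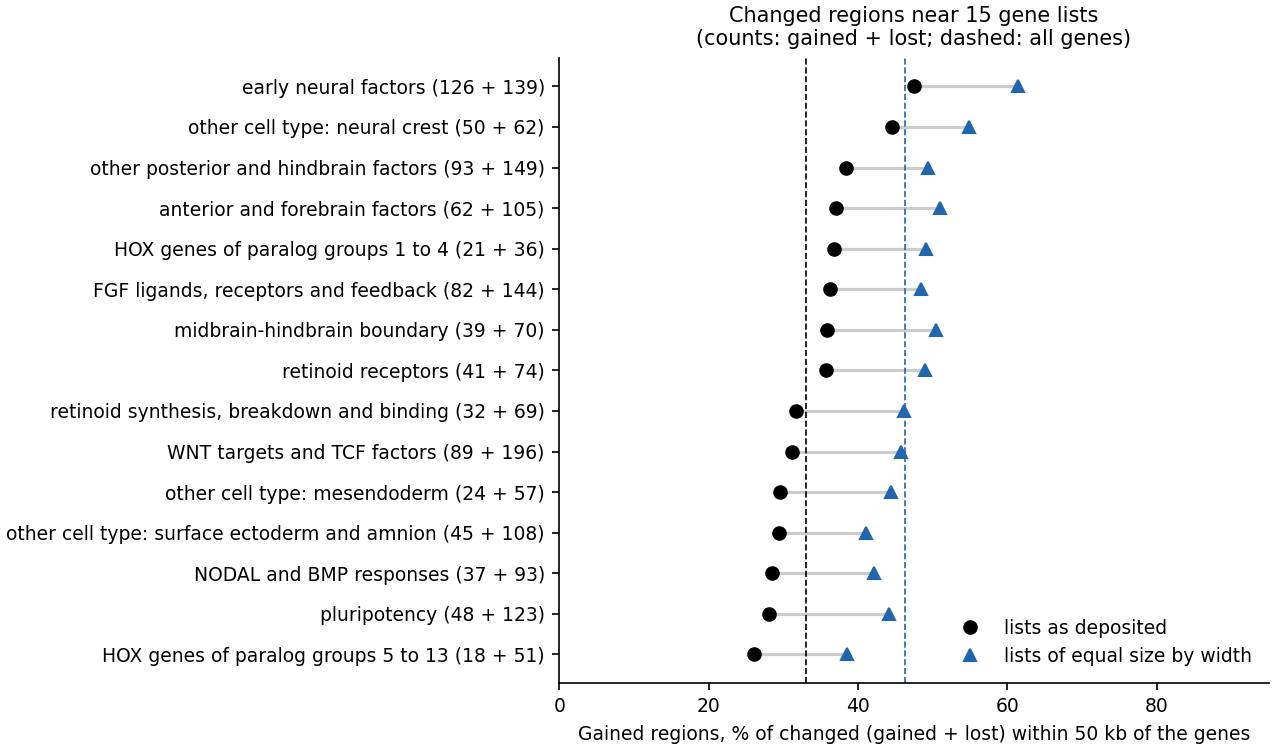
Gained regions as a percentage of gained plus lost regions within 50 kb of the genes of each list, with the counts as deposited in brackets, for the lists as deposited (circles) and of equal size by width (triangles). Dashed lines give the same over all protein-coding genes, 33.0% and 46.3%; the early neural list lies above them at 47.5% and 61.4%, and the list of HOX genes 5 to 13 below at 26.1% and 38.5%.

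Among the retinoid receptors, gains were concentrated at RARB, the retinoic acid receptor beta. Its window held 27 gained, 20 lost and 30 kept regions, so that 35.1% of the regions open in either list were gained, against 17.5% over all regions. In lists of equal size 31 were gained and 13 lost, and with each region given to its nearest gene end the numbers at RARB were equal (50.0% gained). From DE to aNE, a comparison that shares the DE list, 8 were gained and 23 lost. The other receptors had more lost than gained regions, as did the median gene. There were 1 gained and 7 lost at RARA, 1 and 9 at RARG, 5 and 21 at RXRA, 1 and 8 at RXRB and 6 and 9 at RXRG. At RXRG 20.0% of the regions open in either list were gained, also above 17.5%. Over the 6 receptor genes, 41 regions were gained and 74 lost (35.7%).

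The RARB window was covered more widely in pNE and in the lists made from it. Peaks covered 13033 bp of it in hPSC, 16687 in DE, 17232 in aNE and 21844 in pNE. The day 4 T, M and H lists made from aNE had 19840, 20149 and 18832 bp there, and those made from pNE 30681, 26421 and 46015 bp. Every list made from pNE thus exceeded every list made from aNE, and 2 of the 27 gained regions were open in hPSC. These coverages are of the lists as deposited, of which pNE_H was the longest. How many windows over all genes separate the lists in this way was not counted. Of the 27, 22 were open in pNE_H, 18 in pNE_T and 17 in pNE_M, and 10, 11 and 12 in aNE_T, aNE_M and aNE_H.

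At the RARB start shown above, which lies inside the longer RARB transcripts, the DR5 was already inside a peak in DE. That DE peak ran from -270 to 153 (423 bp), the aNE peak from -521 to 159 (680 bp) and the pNE peak from -509 to 546 (1055 bp). Within 1 kb of the start, peaks covered 615 bp in hPSC, 578 in DE, 680 in aNE and 1055 in pNE. Among day 4 lists the T, M and H values were 684, 885 and 701 bp after aNE, and 1248, 1213 and 1177 bp after pNE. The values of pNE and its descendants did not overlap those of the other 6 lists, which were at most 885 bp. They were not repeated in lists of equal size, and how many starts over all genes separate in this way was not counted. Of the gained regions, one at chr3:25338037-25338872 was open in all 8 lists from day 2 on. One at chr3:25424258-25424683, with its midpoint at -3792 from the start shown, was open in 6 lists. These were pNE, pNE_M, pNE_H and also aNE_T, aNE_M and aNE_H, and the region was closed in hPSC, DE, aNE and pNE_T.

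**Figure D4:**
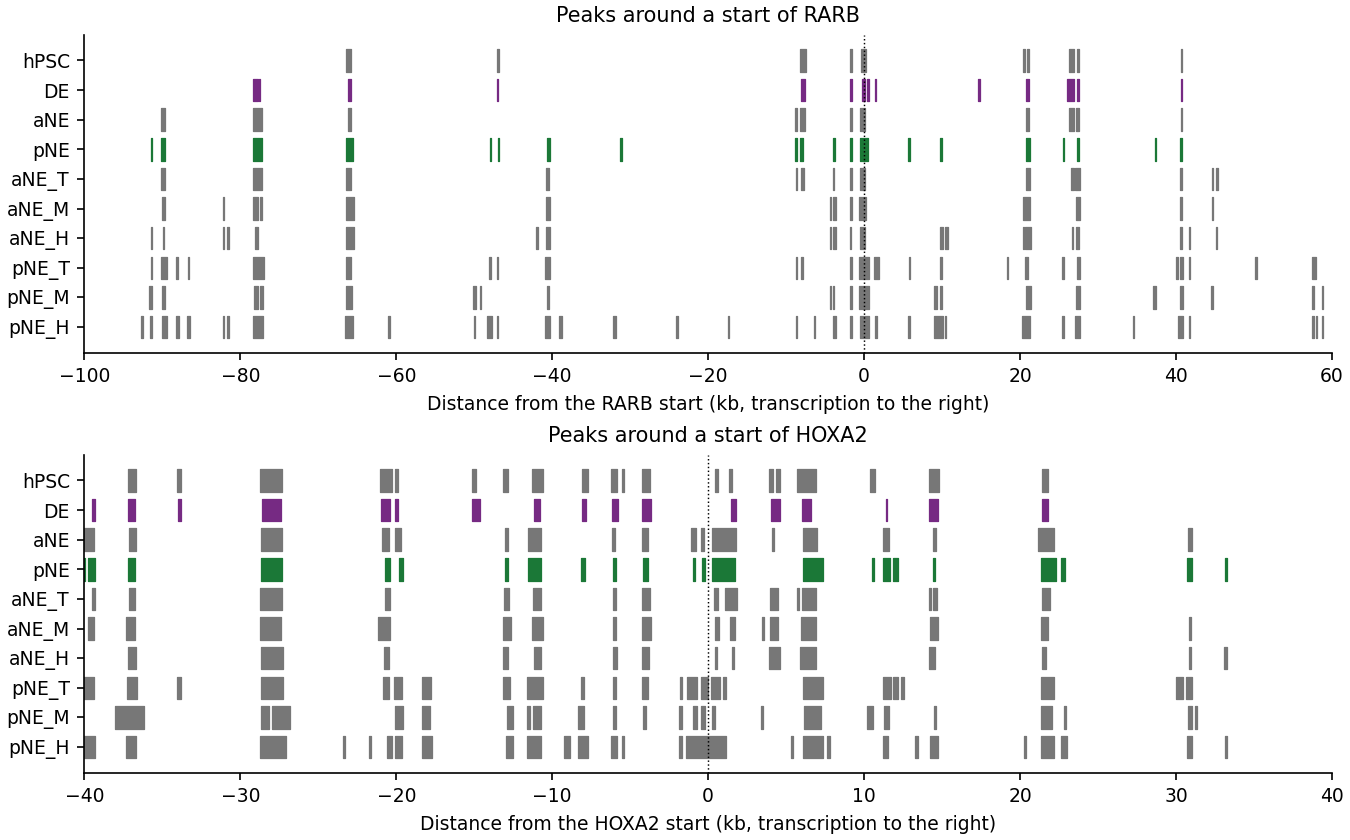
Peaks of each of the 10 lists around the RARB start shown above (top) and the HOXA2 start (bottom), by distance from the start in kb with transcription to the right. DE is purple and pNE green; pNE has peaks at RARB where DE has none, and DE has no peak at the HOXA2 start, where its nearest begins at base 1476.

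The genes that make, break down and carry retinoic acid did not follow RARB. At these 12 genes 32 regions were gained and 69 lost (31.7%), close to the 33.0% over all genes. CYP26A1, the enzyme that breaks down retinoic acid and a known target of it, had 2 gained, 6 lost and 12 kept regions. The CYP26A1 start with a DR5 from -90 to -74 was open in both lists, with 1414 bp of peaks within 1 kb in DE, 1522 in aNE and 1068 in pNE. CYP26B1 had 4 gained and 2 lost, and a gained share below balance by nearest gene end (28.6%) and with 10 kb windows (33.3%). At CRABP2, which carries retinoic acid in the cytoplasm, peaks within 1 kb of the start covered 705 bp in DE, 1316 in aNE and 1234 in pNE. The ALDH1A1 start, of an enzyme that makes retinoic acid, had a peak in hPSC (306 bp) and DE (252 bp) and in none of the other 8 lists.

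The DR5 is rare at starts. Of 21156 RefSeq promoters of 300 bases (250 before and 50 after the start), 0.0756% held one on either strand, and the other spacings searched were as rare, with 0.137% for DR1 and 0.0378% for DR2. The elements in gained or lost windows are shown, with those of the known targets RARB and CYP26A1, whose windows were kept. They are read along their own strand, and the choice was made after their values were seen.
RARB: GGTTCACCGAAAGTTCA
CYP26A1: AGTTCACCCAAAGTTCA
BATF2: AGTTCATGTGAGGGTCA
CYB5R2: GGGTCAGCTGCAGGTCA
CFLAR: GGTTCAGTCCAAGGTCA

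The BATF2 promoter window was gained, with 0 bp of peaks within 1 kb in DE, 167 in aNE and 489 in pNE. That of CYB5R2 was gained as well, with 578 bp in DE, 843 in aNE and 871 in pNE. The CFLAR window was lost, with 756 bp in DE, 353 in aNE and 232 in pNE. With so few elements no share can be compared.

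At the HOX clusters the 3′ genes, which retinoic acid is known to turn on first, had a higher share of gained regions than the 5′ genes, in pNE and also in aNE, which had no TTNPB. Near the 12 genes of paralog groups 1 to 4, 21 regions were gained and 36 lost (36.8%, and 49.1% in lists of equal size). Near the 27 genes of groups 5 to 13, 18 were gained and 51 lost (26.1% and 38.5%), and none of these 27 genes had more gained than lost. From DE to aNE, which shares the DE list, the gained shares were 34.2% for groups 1 to 4 and 23.6% for groups 5 to 13, beside 15.2% over all genes. HOXA2 had 6 gained and 3 lost, HOXA3 8 and 6, and HOXB1 8 and 6. HOXD3 and HOXD4, whose windows overlap, each had 0 gained and 5 lost. The windows of neighbouring HOX genes share regions. The excess of gains at HOXA2 and HOXA3 turned to an excess of losses when the widest 50% of each list was used (gained shares of changed regions of 37.5% and 33.3%), and at HOXA2 no gained region was left when each region went to its nearest gene end.

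Within the cluster bounds, peaks between HOXB1 and HOXB4 (chromosome 17, 48528526 to 48578350) covered 5562 bp in hPSC, 3343 in DE, 3864 in aNE and 4669 in pNE. Later they covered 3124, 3480 and 4330 bp in the T, M and H lists made from aNE, and 6894, 7301 and 8760 bp in those made from pNE. Coverage was thus lowest among the early lists in DE, and pNE lay below hPSC. From HOXD8 to HOXD13 peaks covered 8615 bp in DE, 7529 in aNE and 6631 in pNE, with 0 regions gained, 3 lost and 10 kept.

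At the HOXA2 start pNE had peaks from -992 to -830, from -412 to -205 and from 221 to 1707, while the nearest DE peak began at 1476. Within 1 kb of the start peaks covered 0 bp in DE, 1067 in aNE and 1152 in pNE. The start window, 250 bases before to 50 after the start, is called open in pNE and closed in aNE, whose peaks from -429 to -283 and from 276 to 1789 lie on either side of it. The merged region there counts as kept, since the DE peak lies in it. The day 4 T, M and H lists covered 1329, 687 and 2001 bp when made from pNE, and 309, 204 and 165 bp when made from aNE, with no overlap between them. How common such separation is over all starts was not counted. The HOXB1 start was kept, with 800 bp in hPSC, 449 in DE, 356 in aNE and 726 in pNE. There the lists made from pNE had 796, 617 and 678 bp, and those made from aNE had 0. Coverage at this start was thus widest in hPSC, and neither pNE nor a list made from it exceeded hPSC.

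Of the other posterior and hindbrain factors, 19 genes had 93 gained and 149 lost regions (38.4%, and 49.4% in lists of equal size). The HOX cofactors of the MEIS family had more gains than losses at MEIS1 (10 gained, 4 lost) and MEIS2 (12 and 5), while MEIS3 had 5 and 6. With each region given to its nearest gene end, 45.5% of changed regions at MEIS1 were gained, below balance. Of the 12 gained regions at MEIS2, 9, 7 and 11 were open in pNE_T, pNE_M and pNE_H, 9, 6 and 5 in aNE_T, aNE_M and aNE_H, and 2 in hPSC. PBX3, another HOX cofactor, had more losses, with 7 gained and 20 lost. The nuclear receptors NR2F1 and NR2F2 each had 5 gained and 2 lost, and CDX1 and CDX2, caudal factors of the tail end, had 2 and 11, and 4 and 8. The hindbrain factor EGR2 had 2 and 3.

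Several start sites of this list were covered more widely in pNE than in DE. Of its 14 starts with a peak in both lists within 1 kb, 6 were covered at least 1.5 times as widely in pNE and 1 at least 1.5 times as widely in DE, against 6.26% and 3.56% over all 16615 such starts. The 6 were a start of EGR2 and those of CDX2, NR2F1, NR2F2, IRX1 and SP5. Wider starts were not limited to this list: over all gene lists together, 40 of 204 such starts were wider in pNE by this measure and 17 in DE. At CDX2 peaks covered 253 bp in DE, 708 in aNE and 924 in pNE, and at SP5, a known WNT and FGF target, 718, 829 and 1411 bp. At MEIS3 they covered 0 bp in DE, 296 in aNE and 584 in pNE, and its start was open in all 8 lists from day 2 on and in neither hPSC nor DE. GBX2, the hindbrain partner of OTX2 at the midbrain border, went the other way with 915, 835 and 595 bp. At each of these 8 starts aNE lay between DE and pNE.

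Anterior and forebrain genes had 62 gained and 105 lost regions at 20 genes (37.1%, and 51.0% in lists of equal size), near the 38.4% and 49.4% of the posterior list. OTX2, which marks forebrain and midbrain, had 2 gained, 10 lost and 10 kept regions. Its upstream start, shown above, had a DE peak from -114 to 34, and no other list had a peak in that start window. At its downstream start peaks within 1 kb covered 958 bp in hPSC, 723 in DE, 893 in aNE and 458 in pNE. Over the whole OTX2 window they covered 9594 bp in DE, 7784 in aNE and 6723 in pNE. VAX1 had 9 gained and 4 lost regions, PAX6 6 and 6, SIX3 2 and 6, and OTX1 5 and 3, which went below balance by nearest gene end (33.3% gained). One PAX6 start opened, with 259 bp within 1 kb in DE, 340 in aNE and 816 in pNE.

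Genes of the midbrain-hindbrain boundary had 39 gained and 70 lost regions at 9 genes (35.8%). At the PAX2 start peaks covered 634 bp in DE, 1016 in aNE and 1285 in pNE. At WNT1, the boundary's WNT ligand, they covered 904, 671 and 446 bp.

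FGF ligands, receptors and feedback genes had 82 gained and 144 lost regions at 24 genes (36.3%). By nearest gene end this list had 180 gained and 202 lost (47.1%), beside 36.0% of all changed regions. With 10 kb windows it had 34 gained and 76 lost (30.9%). SPRED1, an inhibitor of RAS signalling, had 7 gained and 2 lost, and SPRY4, a feedback inhibitor, 6 and 5, near balance. ETV4, a transcription factor induced by FGF, had 0 gained and 5 lost, and FGF2 itself 1 and 11. The starts did not follow the regions. At FGF2 peaks within 1 kb covered 441 bp in DE, 1288 in aNE and 1385 in pNE, and at SPRY2 they covered 1064, 1032 and 365 bp. SPRY2, a feedback inhibitor, was thus covered less in pNE than in either other list.

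WNT targets and TCF factors had 89 gained and 196 lost regions at 22 genes (31.2%, and 45.7% in lists of equal size), near the values over all genes. LGR5, a WNT target and receptor of R-spondins, had 9 gained and 5 lost. AXIN2, the feedback target that tankyrase inhibition stabilises, had 5 and 5, and LEF1 had 4 and 11. A start of TCF7L2 opened, with 0 bp within 1 kb in DE and aNE and 587 in pNE. A start of TCF7 closed, with 608 bp in DE and 0 in both others.

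Genes of pluripotency and of NODAL and BMP responses had gained shares near that over all genes in the 50 kb windows. At 19 pluripotency genes 48 regions were gained and 123 lost (28.1%, and 44.1% in lists of equal size). POU5F1, the core pluripotency factor OCT4, had 0 gained, 9 lost and 6 kept regions, and peaks covered 6067 bp of its window in DE, 3779 in aNE and 3042 in pNE. Of its 9 lost regions 5 were open in hPSC, 1 each in aNE, aNE_T, aNE_M and pNE_M, and none in aNE_H, pNE_T or pNE_H. SOX2, which neural cells keep, had 2 gained and 7 lost, NANOG 3 and 3, and PRDM14 0 and 4. LIN28B had 12 gained and 9 lost. At 15 genes of NODAL and BMP responses 37 were gained and 93 lost (28.5%), with 2 and 6 at NODAL. The share of the NODAL and BMP list depended on how regions were assigned. By nearest gene end this list had 84 gained and 138 lost (37.8%), beside 36.0% of all changed regions. With 10 kb windows it had 7 gained and 38 lost (15.6%), the lowest share of the 15 lists. A BMP4 start opened, with 300 bp within 1 kb in DE, 655 in aNE and 958 in pNE.

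Over all 21156 promoter windows, 500 (2.36%) were gained and 520 (2.46%) lost from DE to pNE, 15220 were kept and 4916 were closed in both. Among the 246 windows of the gene lists, 13 were gained and 13 lost. The gained ones lay at HOXA2, MEIS3, NR2F2, IRX1, PAX6, VAX1, BMP4, TCF7L2, LIN28B, STRA6, GATA2 and GATA3, which had a pair of them. The lost ones lay at OTX2, NKX2-1, HOXA7, HOXD4, HOXD12, RXRA, ALDH1A1, FGFR2, SPRY2, TCF7, TFAP2A and a further pair at GATA3. In lists of equal size all kept these calls but HOXD4, closed there in both. At TFAP2A, a surface ectoderm factor, a peak of 209 bp from -35 to 174 in DE had no counterpart in aNE or pNE. Of the 204 listed starts with a peak in both, 40 were covered at least 1.5 times as widely in pNE and 17 in DE, against 6.26% and 3.56% over all 16615 such starts.

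**Figure D5:**
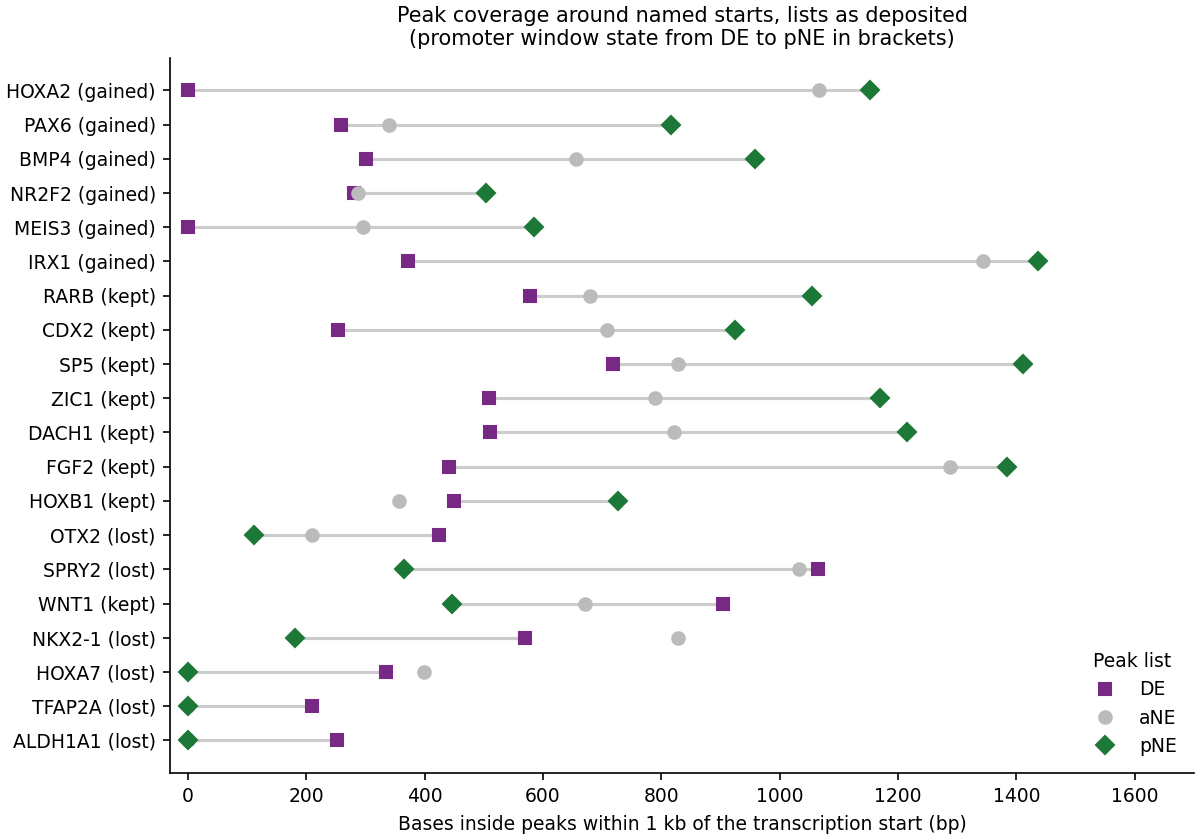
Bases inside peaks within 1 kb of 20 named starts in the DE, aNE and pNE lists, with the state of the promoter window from DE to pNE in brackets. Coverage is higher in pNE than in DE for the upper 13 starts, such as HOXA2 with 0 and 1152 bp, and lower for the others, such as SPRY2 with 1064 and 365 bp.

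In GC content and ETS matches, gained and lost promoters were closer to each other than to kept ones. The median GC content was 56.7% in gained, 56.0% in lost and 66.0% in kept windows, and 62.7% over all. Windows closed in both lists had a median of 48.0%. The ETS motif CCGGAAG was in 3.8% of gained, 4.23% of lost, 16.6% of kept, 3.19% of closed and 12.9% of all windows. The RAR/RXR hexamer AGGTCA was in 14.2% of gained, 17.9% of lost and 11.9% of all windows. The AP-1 motif TGANTCA was in 9.0%, 10.2% and 6.08%, the OTX motif GGATTA in 8.0%, 10.2% and 5.48%, and the MEIS motif TGACAG in 20.8%, 16.9% and 14.8% of gained, lost and all windows. Both strands were searched. Windows closed in both lists held the hexamer at 18.5%, AP-1 at 11.5%, OTX at 8.58% and MEIS at 19.8%, so shares above that of all windows were not limited to windows that changed. The E-box CANCTG, which basic helix-loop-helix factors bind, was in 52.8% of gained (48.4% to 57.1%), 64.4% of lost (60.2% to 68.4%), 57.2% of closed and 47.6% of all windows.

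Over all protein-coding genes, the highest excess of gained regions lay at long genes. ERBB4, a neuregulin receptor, had 39 gained and 15 lost regions, GPC6, a heparan sulfate proteoglycan, 46 and 24, ROBO1, an axon guidance receptor, 36 and 15, and NLGN1, a synaptic adhesion protein, 33 and 13. DGKB, DPYD, GPC5, LHFPL6, NALF1 and PTPRD followed. All 10 stayed above balance in lists of equal size. The highest excess of lost regions also lay at long genes, with 25 gained and 118 lost at DAB1, an adaptor of reelin signalling, 26 and 111 at RBFOX1, a splicing factor, 24 and 90 at PTPRN2 and 13 and 78 at ASIC2. CAMTA1, KAZN, ERC2, NTM, AUTS2 and SHANK2 followed. AUTS2 was near balance in lists of equal size, with 47 gained and 48 lost.

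By share, with at least 15 regions open in either list, BMP5, a BMP ligand, had 10 gained, 0 lost and 5 kept. Of the 10 gained regions 3, 10 and 9 were open in aNE_T, aNE_M and aNE_H, 6, 8 and 10 in pNE_T, pNE_M and pNE_H, and 1 in hPSC. RFX6 had 10 gained and 2 lost, and TMEM144 9 and 2. INSIG2, NXPE3, ARAP2, DACH1, CCDC102B and CDH6 were also among the 10 highest. At the other end 1256 of 12413 such genes had 0 gained regions, so they could not be ranked. Ranked instead by the share lost, a choice made after the values were seen, FLVCR1, a heme exporter, had 0 gained and 16 lost. RFC1 followed with 1 and 11, and then NCOR1, a corepressor that unliganded retinoic acid receptors bind, with 1 gained, 20 lost and 7 kept. From DE to aNE, which shares the DE list and had no TTNPB, NCOR1 had 2 gained and 17 lost. By nearest gene end it had 0 gained and 6 lost from DE to pNE.

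The widest gained regions more than 1 kb from a gene end were open in most later lists. The widest lay on chromosome 11 at 20276007 to 20277451 (1445 bp), outside genes and 87.0 kb from an end of HTATIP2, and was open in aNE, pNE and every day 4 list. The others were on chromosome 4 at 133811834 to 133813106, on chromosome 1 at 218402034 to 218403298 inside TGFB2 and at 160076163 to 160077426, and on chromosome 11 at 73521169 to 73522372 inside FAM168A. The widest lost region was on chromosome 12 at 118942336 to 118943766 (1431 bp), outside genes and 38.5 kb from SRRM4. It was open in hPSC, DE, aNE, aNE_T and aNE_M and in no list made from pNE. The second, on chromosome 7 at 66490390 to 66491809, was open in hPSC, DE and aNE. The third, on chromosome 17 at 39555380 to 39556786 inside CDK12, was open again in pNE_M and pNE_H, and the fourth, on chromosome 22 at 39229680 to 39231056 inside PDGFB, was open in the 9 lists other than pNE. The fifth, on chromosome 17 at 9104656 to 9105995 inside NTN1, the axon guidance cue netrin, was open in the same 5 lists as the first.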

How the data were processed

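Per the labels, OmniATAC-seq was done on 30 libraries, 3 replicates in each of 10 groups. The authors deposited 1 list of peak positions per group in bp, with no other value. Per the submitters' processing notes, which name MACS2, Bowtie2 and bedtools without versions or roles, the build was hg38. How replicates were combined and the peak threshold are not given in the sources used here, so neither depth nor spread can be stated.

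Peaks on chromosomes 1 to 22 were merged across lists (minimum overlap 1 bp) in Python 3.11.15 with pandas 2.3.3 and numpy 2.4.6. Counting was tested on 60000 simulated regions with a largest error of 0. Genes, starts and sequences were RefSeq's (GRCh38.p14). Of 246 listed genes 243 matched. Shares carry Wilson 95% intervals, which cover counting error only and treat regions as independent. No test between groups was made.

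The members and gene lists were chosen with earlier results of these data known. Named were list genes with at least 5 changed regions or a defining role, the 10 genes at either end of gained minus lost and of share, and the 5 widest gained and lost regions; some genes under this rule are not reported here. Promoter windows, motif repeats and a stricter width threshold at starts were alternatives added after the data were seen.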

Additional observations from a re-analysis of the deposited data

Results flagged for a closer look

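The comparison used chromosomes 1 to 22. Peaks also lay outside them, where no comparison was made: 9.42% of all DE peaks and 8.36% of all pNE peaks. They were singled out because they are signal in data left out of the comparison.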

How the results depend on the processing

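With the widest 50% of each list, 24042 regions were gained, 42201 lost and 72638 kept. Without peaks under 200 bp, 51348 were lost, and where peaks had to cover 50% of a region, 80713 were kept. Losses exceeded gains in number under each of the 6 alternatives. The Jaccard index was 0.5231 in lists of equal size, 0.523 with the widest 50%, 0.3567 with 50% cover, 0.4992 with DE and pNE merged alone, 0.5302 with 500 bp windows and 0.5248 without narrow peaks. Within 500 bp and 5 kb of a gene end lay 5.13% and 24.0% of gained, 5.4% and 28.6% of lost, and 16.2% and 36.4% of kept regions. With all lists cut to the shortest, the open shares of gained regions were 24.6% in hPSC, 44.1%, 61.3% and 62.3% in the T, M and H lists made from aNE, 44.9% and 52.7% in the T and H lists made from pNE, and 44.6% of lost regions were open in hPSC. At a 2-fold threshold, 404 starts were wider and 294 narrower in pNE. Of 60 values for gene lists, 37 stayed within the interval of the value reported. Gained exceeded lost regions under all 4 alternatives for genes at MEIS2, NR2F1, DACH1, VAX1, LGR5 and CDH2, and under 2 of 4 at SOX1, OTX1, SPRY4 and CYP26B1. The causes of these shifts were not tested. No paired analysis was possible because each group has 1 list, and for the same reason no replicate could be left out.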

Other observations

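Of 1461 miRNA hairpins in RefSeq on these chromosomes, 15 overlapped gained regions, 35 lost and 255 kept regions. Of all regions open in either list 17.5% were gained, 31.1% lost and 51.4% kept, so hairpins lay in changed regions less often than that. MIR615, which lies in the HOXC cluster, was among the gained, and MIRLET7A1 and MIR149 were among the lost. The 1 Mb bin with the most gained regions held 50 gained, 49 lost and 93 kept, at chr7:1000001-2000000, with UNCX, MAFK and MICALL2. The bin at chr16:86000001-87000000, with FOXF1, FOXC2 and FOXL1, held 43 gained, 68 lost and 84 kept. The bin with the most lost regions held 16 gained, 95 lost and 83 kept, at chr6:168000001-169000000, with SMOC2, DACT2, FRMD1 and KIF25. The median bin held 17 gained, 29 lost and 49 kept regions.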
